A study of Homo sapiens with 15 samples.

Results

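The genes described here are 36 genes of glucose uptake, glycolysis and the response to low oxygen. The choice was made with earlier results of these data known, so counts set beside all genes are descriptions. The 36 genes were chosen by name among the 61544 genes of the count table, and each name was found exactly once. They were grouped into 7 roles: glucose transport, upper glycolysis, lower glycolysis, lactate and its export, regulators of glycolytic flux, oxygen sensing, and other hypoxia targets. Of the 36 genes, 35 had enough reads to be tested. The exception was CA9, a carbonic anhydrase at the cell surface and a commonly used hypoxia marker, which had 0 to 9 counts in every library (at most 0.411 CPM, reads scaled to a common library size) and shares its position with ARHGEF39.

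Glucose enters cells through facilitative transporters and is trapped by hexokinases. The upper enzymes of glycolysis then split it into triose phosphates, and the lower enzymes turn these into pyruvate with a gain of ATP. In tumour cells much of the pyruvate becomes lactate, which leaves through monocarboxylate transporters. When oxygen falls, prolyl hydroxylases of the EGLN family no longer mark HIF1A for degradation, and the stabilized factor activates many glycolytic genes as well as genes of blood vessel growth, acid handling and stress. HIF1A is controlled largely at the level of its protein, which RNA-seq does not measure. Squamous cell carcinomas of the lung are known for high glucose uptake.

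RNA-seq was performed on HCC95, an established cell line from a human lung squamous cell carcinoma (LUSC), after transfection with small interfering RNA (siRNA), which guides cleavage of a matching mRNA. There were 5 groups of 3 libraries: the negative control siNC1, and siKLF5b, siTP63b, siSOX2b and siGRHL2a, each named for the transcription factor it targets. The cells carried no other alteration named in the labels, and each factor was targeted under a single siRNA name. The time from transfection to RNA is not given in the sources used here. Nothing in the labels says that the 3 libraries of a group came from separate cultures, so the p-values measure the spread between libraries, which may be technical.

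The count columns fall into 2 sets by their names, 6 libraries of siNC1 and siKLF5b and 9 libraries of siTP63b, siSOX2b and siGRHL2a. Even numbers made up 49.7% to 50.7% of the counts between 20 and 500 in the first set and 66.1% to 69.0% in the second. PC1 of log2 CPM, with 51.0% of the variance, also separated the sets. The set and the knockdown cannot be told apart across them, so siKLF5b was compared with siNC1, and the other knockdowns were compared with each other. No comparison of those 3 knockdowns with a control could be made within their set.

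The libraries held 15655495 to 34229063 counts, and 0.785% to 0.944% of each library lay in the 36 genes. KLF5 had 72.4 ± 1.13 CPM in siKLF5b and 113 ± 8.66 CPM in siNC1 (SD, n = 3 each), a log2 fold change (log2FC) of -0.64 with a standard error (SE) of 0.058 (adjusted p = 5.28e-10, edgeR quasi-likelihood test with Benjamini-Hochberg adjustment over all genes). TP63 had 363 ± 22.3 CPM in siTP63b, against 689 ± 38.2 CPM in siSOX2b and 830 ± 28.2 CPM in siGRHL2a. SOX2 had 8.96 ± 1.63 CPM in siSOX2b, against 29.5 ± 2.23 CPM in siTP63b and 20.1 ± 1.54 CPM in siGRHL2a. GRHL2 had 91.2 ± 0.563 CPM in siGRHL2a, against 117 ± 2.38 CPM in siTP63b and 100 ± 4.58 CPM in siSOX2b. Each targeted gene was lowest in its own knockdown within its set. For GRHL2 the margin was small, at 91.2 CPM in siGRHL2a against 100 CPM in siSOX2b. The set of siTP63b, siSOX2b and siGRHL2a holds no control, so how far their targets fell is not known from these libraries.

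The summed level of 13 squamous cell markers, among them KRT5 and the targeted TP63 and SOX2, was 10816 to 12438 CPM in siNC1 and 7229 to 8254 CPM in siKLF5b. KRT5 made up most of it, at 8625 CPM on average in siNC1 and 5358 CPM in siKLF5b. Of the 13 markers, 8 were lower in siKLF5b and 4 were higher at adjusted p below 0.05 (edgeR), the latter being KRT15 (log2FC 0.84), PERP (0.79), SOX2 (0.54) and DSG3 (0.21). In the other set it ranged from 7200 to 8521 CPM for siTP63b, from 10356 to 11372 for siSOX2b and from 13166 to 13549 for siGRHL2a. In siTP63b against siSOX2b, 8 of the 13 markers were lower and 2 higher, SOX2 (log2FC 1.73) and KRT15 (0.77), at adjusted p below 0.05 (edgeR). Against siGRHL2a, 11 were lower in siTP63b and 1 higher, SOX2 (0.55). In siSOX2b against siGRHL2a, 10 were lower and 0 higher. Squamous markers moved with the knockdowns, in siKLF5b and siTP63b in both directions, and their part in the results below was not tested. Of the markers of other cells, the fibroblast list, mostly THY1, summed to 50.5 to 60.7 CPM in siNC1, 24.0 to 39.2 CPM in siKLF5b and 47.9 to 71.2 CPM in the other 9 libraries. The immune list, mostly CD68, summed to 34.0 to 36.7 CPM in siNC1 and 21.5 to 24.3 CPM in siKLF5b, and endothelial and alveolar lists summed to at most 15.7 CPM in any library. The fibroblast and immune sums were thus lower in siKLF5b as well. So was the endothelial sum, at 14.9 to 15.7 CPM in siNC1 and 11.5 to 13.5 CPM in siKLF5b. At adjusted p below 0.05 (edgeR), 2 of 4 fibroblast, 1 of 2 immune and 0 of 2 endothelial genes tested were lower, and 0 were higher. The part of these lists in the results was not tested. In bulk RNA, a lower level in all cells and a smaller share of cells with the RNA cannot be told apart.

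Levels across genes were compared as mean CPM per kilobase of annotated exon. On this scale GAPDH stood highest of the 36 in every group, at 765 in siSOX2b to 1008 in siNC1. LDHB and ENO1 followed, at 322 and 268 in siNC1. The factor HIF1A itself stood at 46.2 to 73.5, above the oxygen sensors EGLN1 (8.12 to 9.82) and EGLN3 (5.87 to 7.62). Among the hexokinases HK1 stood at 14.1 to 19.9 and HK2 at 2.24 to 4.73. Reads in introns were counted as well, and 19 of the 36 genes overlapped a gene whose counts were more than 10% as many, so these levels are approximate. Not every such overlap is named again below. GAPDH, PGK1, PGAM1, ENO1, LDHA and LDHB also have processed copies in the genome, between which unique alignment can divide or drop reads.

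Promoters are shown for 4 members that fell in siKLF5b and for 1 that did not pass the test there, so that their letters can be compared. PGK1, SLC2A1, HK2 and CA12 had the largest decreases among the members with a promoter in the RefSeq table, and P4HA1 had a log2FC of -0.01. The 250 bases before the RefSeq start are given 5′ to 3′ on the gene's strand, from build GRCh38.p14. Capitals mark ACGTG, a core of the site bound by hypoxia-inducible factors, read on either strand, so that CACGT is the same match on the other strand. Other forms of this core were not searched.
PGK1 (chrX:78103998-78104247, plus strand): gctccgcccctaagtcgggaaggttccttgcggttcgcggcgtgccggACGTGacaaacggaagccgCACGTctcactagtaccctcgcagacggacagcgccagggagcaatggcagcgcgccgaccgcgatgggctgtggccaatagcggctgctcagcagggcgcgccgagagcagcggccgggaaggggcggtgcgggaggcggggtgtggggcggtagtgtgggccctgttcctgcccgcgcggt
SLC2A1 (chr1:42958869-42959118, minus strand): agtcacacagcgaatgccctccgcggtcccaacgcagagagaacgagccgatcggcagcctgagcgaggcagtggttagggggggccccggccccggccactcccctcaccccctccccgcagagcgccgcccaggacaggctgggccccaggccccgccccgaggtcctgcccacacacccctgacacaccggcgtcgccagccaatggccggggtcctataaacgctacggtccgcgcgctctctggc
HK2 (chr2:74833877-74834126, plus strand): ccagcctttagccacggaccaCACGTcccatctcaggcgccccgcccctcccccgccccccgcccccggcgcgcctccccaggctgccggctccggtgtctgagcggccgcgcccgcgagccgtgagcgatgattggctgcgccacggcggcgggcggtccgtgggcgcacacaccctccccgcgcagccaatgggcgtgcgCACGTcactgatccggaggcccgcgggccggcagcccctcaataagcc
CA12 (chr15:63381847-63382096, minus strand): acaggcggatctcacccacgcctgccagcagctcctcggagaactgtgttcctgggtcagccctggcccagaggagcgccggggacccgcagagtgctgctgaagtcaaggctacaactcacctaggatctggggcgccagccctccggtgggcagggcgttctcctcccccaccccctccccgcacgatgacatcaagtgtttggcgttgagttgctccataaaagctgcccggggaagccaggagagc
P4HA1 (chr10:73096867-73097116, minus strand): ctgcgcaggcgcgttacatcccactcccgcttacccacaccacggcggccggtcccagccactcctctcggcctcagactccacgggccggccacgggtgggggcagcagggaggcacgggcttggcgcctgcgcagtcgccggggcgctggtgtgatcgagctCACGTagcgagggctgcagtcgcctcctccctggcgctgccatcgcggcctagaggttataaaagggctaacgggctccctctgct

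PGK1 and HK2 held 2 ACGTG matches each in the windows shown, P4HA1 held 1, and SLC2A1 and CA12 held 0. The RefSeq start of PGK1 lies inside the wider span that the count table gives the gene, and HK2 has 2 promoters in the table, of which 1 is shown. The promoter table had entries for 32 of the 36 genes, and SLC2A3, SLC16A1, VEGFA and NDRG1 are named only. Over the 250 bases before the start, ACGTG stood in 39.0% of the 59 member promoters and in 18.5% of all 35116 promoters. CCNCNCCC, the GC-rich letters that KLF factors read, stood in 76.3% of member promoters and 53.4% of all. ACAAT, a core of the SOX site, stood in 11.9% and 24.6%, and AACNNGTT, the letters of the grainyhead site, stood in 0 and 3.0%. The windows shown held 64.8% (CA12) to 76.8% (HK2) G and C. Base composition was not matched between the member promoters and all promoters, and its part in these shares was not tested. Both strands were searched, matches of different motifs could overlap, several promoters belonged to 1 gene, and a match describes letters only.

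The comparison of siKLF5b with siNC1 asks which of these genes differed in level after KLF5 knockdown in HCC95. With 1 siRNA name, effects of lower KLF5 and other effects of the siRNA cannot be told apart. Most members were lower after KLF5 knockdown, by small amounts. At adjusted p below 0.05, 24 of the 35 members tested were lower and 1 was higher, against 12.9% of all 25108 genes tested lower and 10.3% higher. The direction was shared by glucose transport (2 of 2 lower), lactate and its export (4 of 4), oxygen sensing (3 of 3), lower glycolysis (5 of 6) and upper glycolysis (6 of 9). Of the flux regulators 1 of 3 was lower, and of the other hypoxia targets 3 of 8. With the additional threshold of an absolute log2FC above 0.75, which the study used, 1 member was lower and 0 were higher, against 1.37% and 1.89% of all genes.

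The median log2FC of the 35 members was -0.26, and that of all genes tested was -0.01. Most members are abundant, and abundant genes are more easily called. Among the 8876 genes with a mean of at least 20 CPM, 26.0% were lower and 14.5% higher, with a median log2FC of -0.05. Of the 31 members in that range, 22 were lower and 1 was higher. The 36 genes together summed to 7967 ± 97.6 CPM in siKLF5b and 9614 ± 289 CPM in siNC1 (SD, n = 3 each), 17.1% less. The groups did not overlap in this sum (p = 0.1 by an exact permutation test, two-sided, which cannot go lower with 3 libraries a group).

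**Figure D1:**
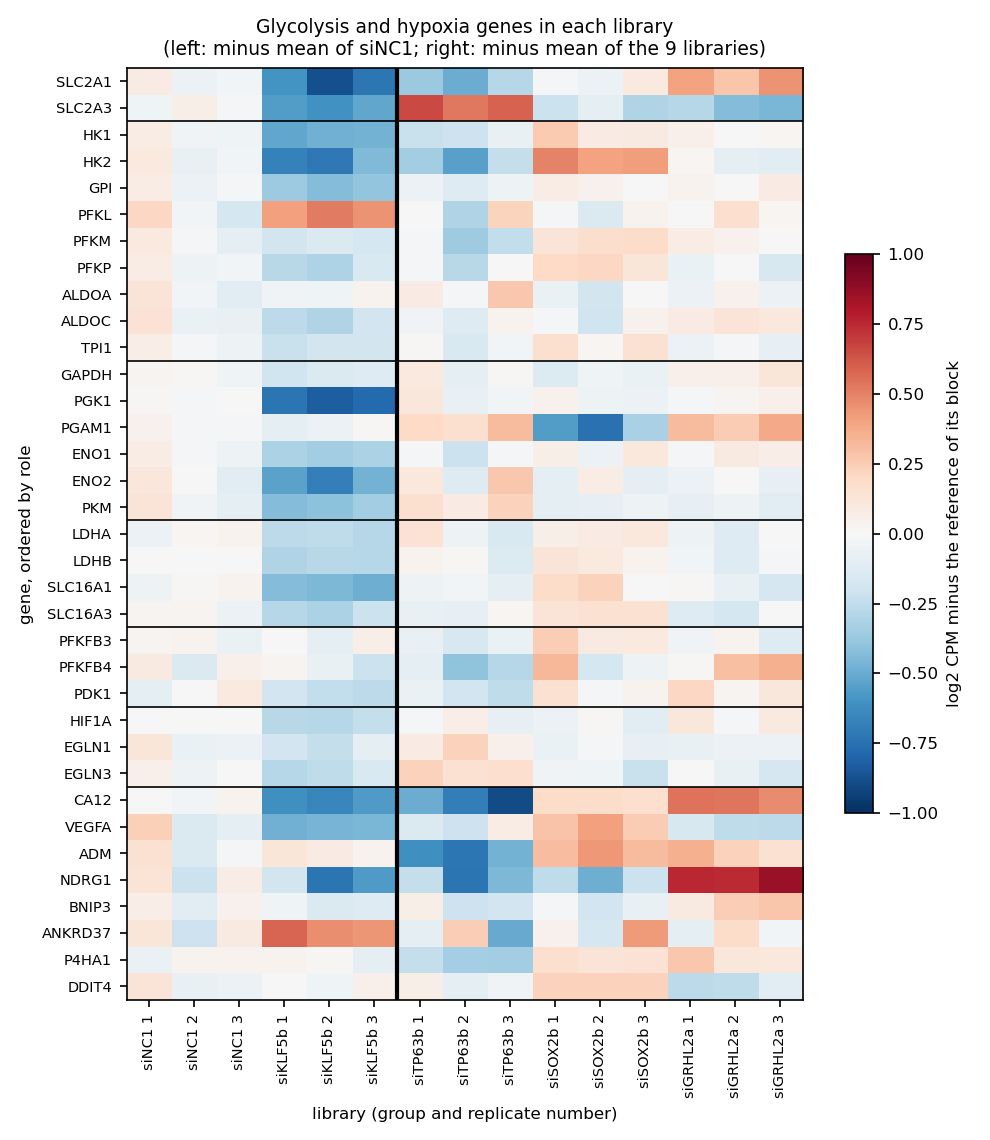
Heat map of the 35 tested members (rows, ordered by role) in the 15 libraries (columns). Colour is log2 CPM minus the siNC1 mean in the left block and minus the mean of the 9 libraries in the right block, from blue (lower) to red (higher). Blue fills most of the siKLF5b columns, while in the right block the strong colours sit in SLC2A1, SLC2A3, HK2, PGAM1, CA12, ADM and NDRG1.

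PGK1, the phosphoglycerate kinase that makes the first ATP of lower glycolysis, was the member past both thresholds (ENSG00000102144.15, plus strand of chromosome X of hg38 from 77910739 to 78129295). It had 452, 445 and 446 CPM in the siNC1 libraries and 271, 253 and 262 CPM in the siKLF5b libraries. The groups stood far apart and neither varied much within itself. The log2FC was -0.78 (SE 0.049, adjusted p = 2.04e-13, edgeR), 41.6% lower. The annotated span of PGK1 crosses 3 other genes, of which ATP7A had 9.05% as many counts. When only protein-coding genes were fitted, the log2FC was -0.74, short of the fold threshold.

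Both glucose transporters fell. SLC2A1 (GLUT1, ENSG00000117394.24, minus strand of chromosome 1 from 42925353 to 42958893), the widespread transporter of basal uptake, had 177, 161 and 165 CPM in siNC1 and 111, 90.9 and 101 CPM in siKLF5b. The lowest control library was well above the highest knockdown library, and the log2FC was -0.73 (SE 0.065, adjusted p = 3.69e-10, edgeR). It passed the fold threshold without siNC1 replicate 2 at -0.76, without siNC1 replicate 3 at -0.75 and without siKLF5b replicate 1 at -0.81. SLC2A3 (GLUT3, ENSG00000059804.16, minus strand of chromosome 12 from 7919230 to 7936187), a transporter of high affinity, had 111, 118 and 112 CPM in siNC1 and 77.0, 74.8 and 79.2 CPM in siKLF5b. Its log2FC was -0.56 (SE 0.058, adjusted p = 8.22e-09, edgeR).

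Of the upper glycolytic enzymes, 6 of 9 fell and 1 rose. HK1, the hexokinase of most tissues, had 144, 133 and 133 CPM in siNC1 and 95.3, 97.8 and 98.5 CPM in siKLF5b. The groups did not overlap, and its log2FC was -0.49 (SE 0.055, adjusted p = 3.04e-08, edgeR). HK2, the inducible hexokinase of tumours, had 21.6, 19.2 and 19.8 CPM in siNC1 and 12.6, 12.3 and 14.9 CPM in siKLF5b. Again no library of one group reached the other, with a log2FC of -0.62 (SE 0.095, adjusted p = 8.65e-06, edgeR). GPI, the isomerase that follows, had 289, 263 and 270 CPM in siNC1 and 213, 203 and 209 CPM in siKLF5b, a log2FC of -0.40 (SE 0.047, adjusted p = 9.82e-08, edgeR). PFKP fell by 0.25 on the log2 scale, ALDOC by 0.26 and TPI1 by 0.20. Genes overlapping GPI and PFKP had 47.6% and 34.9% as many counts as they did.

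The phosphofructokinases, which set the committed step, did not share a direction. PFKL, the liver-type subunit, was the 1 member that rose: it had 25.5, 21.7 and 19.5 CPM in siNC1 and 29.3, 31.8 and 30.2 CPM in siKLF5b. Its log2FC was 0.45 (SE 0.10, adjusted p = 0.00118, edgeR). PFKM, the muscle-type subunit, had a log2FC of -0.17 (adjusted p = 0.0714, edgeR). SENP1, which overlaps PFKM on the other strand, had 56.3% as many counts. ALDOA had a log2FC of -0.02 (adjusted p = 0.884, edgeR), but a gene overlapping it was given 100% as many counts, so its value is uncertain. ALDOC, with an overlapping gene at 363% of its counts, is uncertain for the same reason.

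In lower glycolysis, PGK1 was joined by ENO2, PKM, ENO1 and GAPDH. ENO2, the neuronal form of enolase, had 34.1, 31.4 and 29.1 CPM in siNC1 and 21.7, 19.5 and 22.6 CPM in siKLF5b, a log2FC of -0.57 (SE 0.091, adjusted p = 1.47e-05, edgeR). LRRC23, which overlaps ENO2, had 125% as many counts, so this value is uncertain. PKM, pyruvate kinase, fell by 0.40 on the log2 scale and ENO1, the abundant enolase, by 0.33. GAPDH, the most abundant member and a common reference gene, had 2458, 2436 and 2349 CPM in siNC1 and 2098, 2180 and 2211 CPM in siKLF5b, and fell by 0.16 (adjusted p = 0.0128, edgeR). PGAM1, phosphoglycerate mutase, had a log2FC of -0.05 with a standard error of 0.066 and was the 1 enzyme of this stage that did not pass.

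All 4 genes of lactate formation and export fell. SLC16A1, the monocarboxylate transporter MCT1, had 185, 194 and 196 CPM in siNC1 and 142, 140 and 137 CPM in siKLF5b. The 2 groups were tight and separate, with a log2FC of -0.46 (SE 0.054, adjusted p = 1.15e-07, edgeR). LDHB fell by 0.29 on the log2 scale, LDHA by 0.27 and SLC16A3, the lactate exporter MCT4, by 0.27. LDHB and SLC16A3 overlap genes with 100% and 105% as many counts as their own.

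Among the regulators of flux, PDK1, which keeps pyruvate out of the mitochondria, fell by 0.23 (adjusted p = 0.0257, edgeR), although a gene overlapping it had many times its counts. PFKFB3 and PFKFB4, which make the activator of phosphofructokinase, had log2FCs of -0.01 and -0.09 and did not pass. HIF1A had 380, 379 and 377 CPM in siNC1 and 313, 310 and 322 CPM in siKLF5b, and its log2FC was -0.27 (SE 0.048, adjusted p = 8.12e-05, edgeR). EGLN3 and EGLN1, both hydroxylases that act on HIF proteins and the first also a HIF target, fell by 0.23 and 0.18. The value of EGLN1 was close to the threshold (adjusted p = 0.0442, edgeR) and passed in 10 of 17 alternatives. Genes overlapping HIF1A, EGLN3 and EGLN1 had 98.6%, 69.3% and 111% as many counts as they did.

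The other hypoxia targets divided. CA12, a carbonic anhydrase at the cell surface, had 21.8, 21.5 and 22.4 CPM in siNC1 and 14.3, 13.9 and 14.8 CPM in siKLF5b. Every siKLF5b library lay below every siNC1 library, with a log2FC of -0.62 (SE 0.092, adjusted p = 6.05e-06, edgeR). VEGFA, the main growth factor of blood vessels, had 125, 96.3 and 99.7 CPM in siNC1 and 76.0, 77.3 and 77.6 CPM in siKLF5b, a log2FC of -0.48 (SE 0.075, adjusted p = 1.13e-05, edgeR). NDRG1, a stress-induced gene, had 124, 96.9 and 118 CPM in siNC1 and 99.0, 67.6 and 75.8 CPM in siKLF5b. The first siKLF5b library exceeded the second siNC1 library, so the groups overlapped, and the log2FC was -0.49 (SE 0.10, adjusted p = 0.000696, edgeR).

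The other 5 hypoxia targets tested did not pass. ADM, the vasodilator peptide adrenomedullin, had 37.8 ± 3.84 CPM in siNC1 and 39.8 ± 1.13 CPM in siKLF5b, and P4HA1, a collagen prolyl hydroxylase, had 136 ± 5.11 and 135 ± 6.09 CPM (SD, n = 3 each). DDIT4, an inhibitor of mTORC1 signalling, had a log2FC of -0.00 with an SE of 0.057. BNIP3, a mitophagy receptor, had a log2FC of -0.11. ANKRD37, at 2.96 to 3.72 CPM in siNC1 and 4.64 to 5.12 CPM in siKLF5b, did not overlap between the groups and had a log2FC of 0.48 (SE 0.19, adjusted p = 0.0626, edgeR). UFSP2, which overlaps ANKRD37 on the other strand, had 615% as many counts, so its value is uncertain. Across the scaling, filter and model alternatives the members lower at adjusted p alone numbered 23 to 25, and 21 to 24 with 1 library left out.

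**Figure D2:**
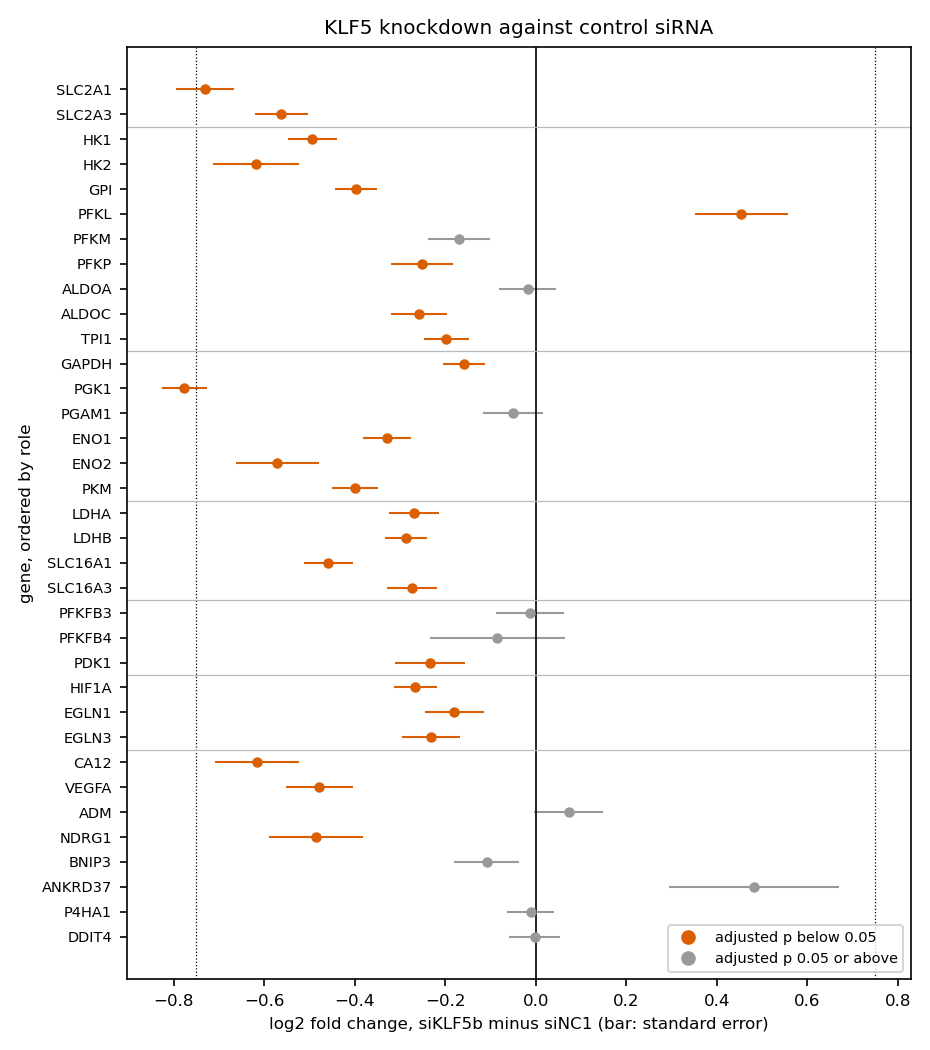
Log2FC of siKLF5b minus siNC1 for the 35 tested members (rows, ordered by role), as points with bars of 1 standard error from edgeR. Dotted lines stand at -0.75 and 0.75. Of the 35 points, 25 are orange (adjusted p below 0.05), PGK1 lies beyond the left dotted line and PFKL is the orange point on the right.

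The comparisons among siTP63b, siSOX2b and siGRHL2a ask how the 3 knockdowns differ from each other, and each knockdown enters 2 of the 3 comparisons. An F test over the 3 groups passed at adjusted p below 0.05 for 28 of 35 members, against 42.9% of all genes tested. Most members are abundant and so more easily called, and no share over abundant genes was computed for these 3 comparisons or the F test. With a largest pairwise absolute log2FC above 0.75 as well, 7 members passed, against 9.85% of all genes: SLC2A1, SLC2A3, HK2, PGAM1, CA12, ADM and NDRG1. The 36 genes summed to 8608 ± 409 CPM in siTP63b, to 8715 ± 105 in siSOX2b and to 8870 ± 97.1 in siGRHL2a (SD, 3 libraries a group). The exact permutation p of these sums was 0.1 for siSOX2b against siGRHL2a, the smallest possible, and 0.4 and 0.8 for siTP63b against siGRHL2a and siSOX2b.

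In siTP63b against siSOX2b, 2 members were past the thresholds and higher (SLC2A3 and PGAM1) and 3 were lower (ADM, CA12 and HK2), against 3.88% of all genes higher and 2.82% lower. At adjusted p alone 6 were higher and 16 lower, against 16.4% and 15.4%. In siTP63b against siGRHL2a, 1 was higher (SLC2A3) and 4 were lower (NDRG1, CA12, ADM and SLC2A1), against 2.18% and 3.21%. At adjusted p alone 5 were higher and 11 lower, against 13.6% and 13.4%. In siSOX2b against siGRHL2a, 0 were higher and 2 lower (NDRG1 and PGAM1), against 1.05% and 2.27%, and at adjusted p alone 10 were higher and 7 lower, against 11.8% and 12.7%. The median log2FC of the members was -0.14, -0.07 and 0.01 in these comparisons, and upper-quartile scaling turned the last to -0.01.

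The glucose transporters moved in opposite directions. SLC2A3 had 129, 117 and 123 CPM in siTP63b, while siSOX2b libraries had 70.4, 76.4 and 66.3 CPM and siGRHL2a libraries 66.9, 60.4 and 59.4 CPM. The siTP63b libraries stood above all others, with log2FCs of 0.79 against siSOX2b (SE 0.057, adjusted p = 1.26e-12, edgeR) and 0.98 against siGRHL2a (SE 0.057, adjusted p = 1.31e-14, edgeR). SLC2A1 ran the other way, with 162, 148 and 172 CPM in siTP63b, while siSOX2b libraries had 207, 202 and 225 CPM and siGRHL2a libraries 278, 254 and 287 CPM. The 3 groups did not overlap in SLC2A1. Its log2FC was -0.76 in siTP63b against siGRHL2a (SE 0.062, adjusted p = 3.03e-11, edgeR), -0.39 against siSOX2b, and -0.37 in siSOX2b against siGRHL2a.

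Some of these values lie near the fold threshold. SLC2A1 in siTP63b against siGRHL2a came to -0.75 with RLE size factors and with DESeq2, just inside 0.75. It came to -0.70 without siTP63b replicate 2, -0.75 without siGRHL2a replicate 1 and -0.72 without siGRHL2a replicate 3. SLC2A3 in siTP63b against siSOX2b came to 0.74 without siSOX2b replicate 3. No alternative changed the direction of either transporter.

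Among the enzymes, HK2 and PGAM1 marked out siSOX2b. HK2 had 29.1, 27.3 and 27.5 CPM in siSOX2b, against 16.2, 14.2 and 17.5 CPM in siTP63b and 20.9, 19.4 and 19.2 CPM in siGRHL2a. All siSOX2b libraries lay above all others, and the log2FC of siTP63b against siSOX2b was -0.81 (SE 0.087, adjusted p = 8.31e-09, edgeR), or -0.73 without siTP63b replicate 2. The log2FC of siSOX2b against siGRHL2a was 0.50 (SE 0.085, adjusted p = 4.39e-05, edgeR).

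PGAM1 (ENSG00000171314.9, plus strand of chromosome 10 from 97426191 to 97433444) showed the opposite order. It had 90.3, 79.4 and 106 CPM in siSOX2b, against 153, 149 and 166 CPM in siTP63b and 165, 158 and 173 CPM in siGRHL2a. The siSOX2b libraries varied more than the others but stayed below them. Its log2FC was 0.76 in siTP63b against siSOX2b (SE 0.066, adjusted p = 8.14e-11, edgeR) and -0.85 in siSOX2b against siGRHL2a (SE 0.066, adjusted p = 2.65e-11, edgeR). The first came to 0.71 without siTP63b replicate 3 and 0.67 without siSOX2b replicate 2, and the second to -0.75, just inside the threshold, without siSOX2b replicate 2.

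The neighbours of PGAM1 in the pathway did not move with it. PGK1, which fell by 0.78 in siKLF5b, ranged from 354 to 403 CPM in siTP63b, from 360 to 386 in siSOX2b and from 369 to 386 in siGRHL2a. Its log2FCs among these groups lay between -0.04 and 0.02, with an F test adjusted p of 0.799 from edgeR. ENO1 and ENO2 also did not pass that F test (adjusted p = 0.0902 and 0.331 from edgeR). PKM was higher in siTP63b, by 0.23 against siSOX2b and 0.24 against siGRHL2a on the log2 scale. GAPDH was lower in siSOX2b than in siGRHL2a by a log2FC of -0.16 (adjusted p = 0.0132, edgeR).

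CA12, NDRG1 and ADM were the hypoxia targets past the thresholds. CA12 (ENSG00000074410.14, minus strand of chromosome 15 from 63321378 to 63381846) had 8.28, 7.20 and 6.26 CPM in siTP63b, while siSOX2b libraries had 13.3, 13.2 and 13.1 CPM and siGRHL2a libraries 17.0, 16.9 and 16.2 CPM. The 3 groups formed separate steps. The log2FC of siTP63b was -0.86 against siSOX2b (SE 0.097, adjusted p = 1.96e-08, edgeR) and -1.20 against siGRHL2a (SE 0.094, adjusted p = 1.52e-11, edgeR). That of siSOX2b against siGRHL2a was -0.34 (SE 0.089, adjusted p = 0.00499, edgeR).

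NDRG1 (ENSG00000104419.17, minus strand of chromosome 8 from 133237175 to 133302022) was high in siGRHL2a. It had 136, 135 and 147 CPM there, 68.3, 48.6 and 58.9 CPM in siTP63b, and 67.6, 57.4 and 69.5 CPM in siSOX2b. The last 2 groups overlapped (adjusted p = 0.329 from edgeR, log2FC -0.14 with a standard error of 0.10). Against siGRHL2a the log2FC was -1.25 in siTP63b (SE 0.10, adjusted p = 4.49e-11, edgeR) and -1.10 in siSOX2b (SE 0.10, adjusted p = 1.22e-09, edgeR).

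ADM (ENSG00000148926.10, plus strand of chromosome 11 from 10305073 to 10307397) was low in siTP63b. It had 30.8, 28.5 and 33.9 CPM in siTP63b, while siSOX2b libraries had 58.4, 63.7 and 58.5 CPM and siGRHL2a libraries 60.3, 55.1 and 52.4 CPM. The log2FC of siTP63b was -0.95 against siSOX2b (SE 0.073, adjusted p = 5.52e-12, edgeR) and -0.85 against siGRHL2a (SE 0.073, adjusted p = 9.42e-11, edgeR). The siSOX2b and siGRHL2a libraries overlapped, with a log2FC of 0.11 (adjusted p = 0.289, edgeR).

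**Figure D3:**
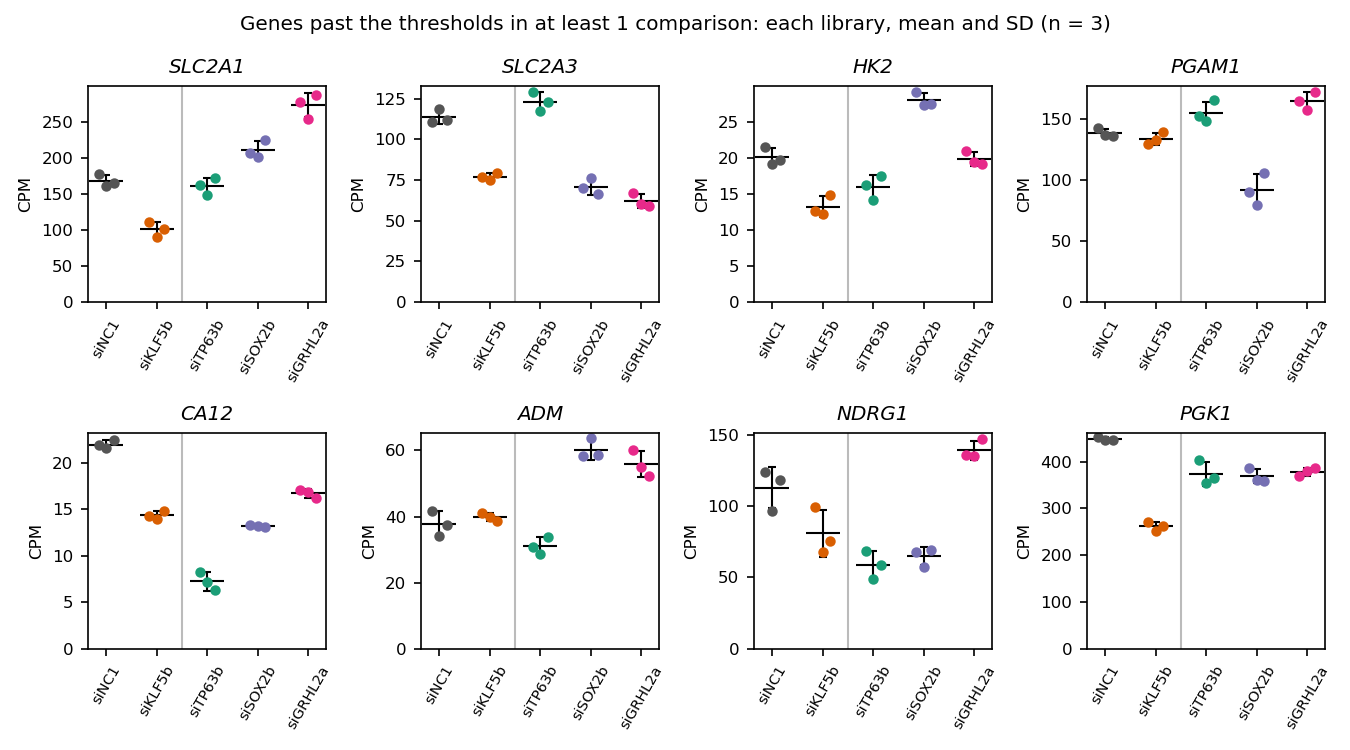
CPM in each library (points) with the mean and SD (bars, n = 3) for the 8 members past the thresholds in at least 1 comparison, on axes that start at 0. A grey line parts the 2 sets of libraries, across which no test was made. SLC2A3 is highest and CA12 lowest in siTP63b, PGAM1 lowest in siSOX2b, NDRG1 highest in siGRHL2a, and PGK1 lower in siKLF5b than in siNC1.

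Several members differed at smaller sizes. P4HA1 had 104, 97.0 and 96.9 CPM in siTP63b, below every library of siSOX2b (134 to 137 CPM) and siGRHL2a (133 to 149 CPM), with log2FCs of -0.45 and -0.48 (standard error 0.052, adjusted p = 3.04e-08 and 1.40e-08 from edgeR). VEGFA had 130, 142 and 127 CPM in siSOX2b and 95.7, 89.6 and 89.0 CPM in siGRHL2a, a log2FC of 0.54 (SE 0.072, adjusted p = 8.16e-07, edgeR). DDIT4 was also highest in siSOX2b, at 217 to 218 CPM, against 174 to 193 CPM in siTP63b and 155 to 172 CPM in siGRHL2a. BNIP3 was highest in siGRHL2a, with log2FCs of -0.31 for siTP63b and -0.29 for siSOX2b against it. ANKRD37 did not pass in any of the 3 comparisons.

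Of the regulators, PFKFB3 was lower in siTP63b and siGRHL2a than in siSOX2b, with log2FCs of -0.24 for siTP63b against siSOX2b and 0.19 for siSOX2b against siGRHL2a, of which the second passed in 11 of 17 alternatives. PFKFB4 was lower in siTP63b than in siGRHL2a (log2FC -0.48, adjusted p = 0.00664 from edgeR), and PDK1 was lower in siTP63b than in both others (log2FC -0.23 and -0.29). HIF1A stood at 245 ± 12.3 CPM in siTP63b, 238 ± 10.4 in siSOX2b and 257 ± 12.6 in siGRHL2a (SD, 3 libraries a group) and did not pass the F test (adjusted p = 0.153, edgeR). EGLN3 was higher in siTP63b, by 0.28 against siSOX2b and 0.26 against siGRHL2a on the log2 scale. EGLN1 was higher by 0.18 in both comparisons, but its call held in 12 of 17 alternatives against siSOX2b and in 13 of 17 against siGRHL2a.

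In the lactate group, SLC16A3, SLC16A1 and LDHB were higher in siSOX2b than in siGRHL2a, by 0.25, 0.22 and 0.14 on the log2 scale. LDHA differed by 0.14 with an adjusted p of 0.056 from edgeR. In siTP63b, SLC16A1 and SLC16A3 were below siSOX2b by log2FCs of -0.20 and -0.19, and 0 of the 4 passed the test against siGRHL2a (adjusted p between 0.430 and 0.886, edgeR). In upper glycolysis, HK1 and PFKM were lower in siTP63b than in siSOX2b, with log2FCs of -0.31 and -0.36, and PFKP with -0.27. PFKL, the member that rose in siKLF5b, had log2FCs between -0.11 and 0.03 among these groups and did not pass.

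Because several steps have isoenzymes, the share of counts of the first gene of a pair was compared in 10 pairs and 4 comparisons. A share within a library does not depend on the scaling between libraries. SLC2A1 held 59.6% ± 1.97 of the counts of SLC2A1 and SLC2A3 in siNC1 and 56.7% ± 2.11 in siKLF5b (SD, n = 3 each), where the groups overlapped (exact permutation p = 0.2, two-sided). Both transporters fell there, with a difference in share of -2.90 percentage points. In the other set the share was 56.6% ± 1.49 in siTP63b, 74.8% ± 2.36 in siSOX2b and 81.4% ± 1.25 in siGRHL2a, with no overlap between any of these groups.

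HK2 held 12.8% ± 0.241 of the hexokinase counts in siNC1, 12% ± 1.02 in siKLF5b, 13.7% ± 0.913 in siTP63b, 18.3% ± 0.516 in siSOX2b and 14.7% ± 0.412 in siGRHL2a. The siSOX2b share stood apart from siTP63b and siGRHL2a. PFKP held 71.3% ± 2.02 of the counts of PFKP and PFKL in siNC1 and 60.4% ± 1.96 in siKLF5b, without overlap. LDHA held 25.4% ± 0.584 and 25.7% ± 0.233 of the lactate dehydrogenase counts in siNC1 and siKLF5b. In the groups of the other set it held 31.6% to 31.9% on average. Within the sets its share differed by only -0.01 to 0.22 percentage points. Shares are not to be compared across the sets, where the set and the knockdown cannot be told apart. For all pairs whose groups did not overlap, the exact two-sided permutation p was 0.1, the smallest possible, and 0.235 after adjustment over the 40 comparisons. The design cannot pass 0.05 here, and the differences are descriptions.

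**Figure D4:**
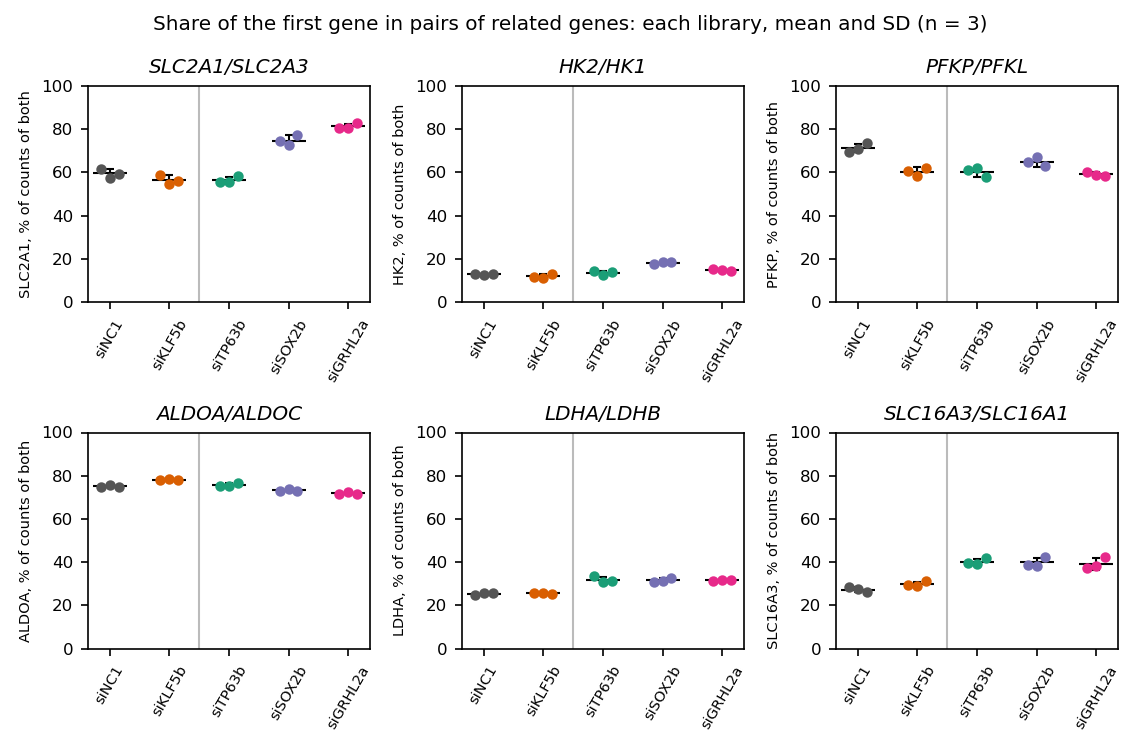
Percent of the counts of a pair held by its first gene in each library (points) with mean and SD (bars, n = 3), for 6 pairs on axes from 0 to 100. The SLC2A1 share rises from about 56.6% in siTP63b to 81.4% in siGRHL2a, the HK2 share is highest in siSOX2b at 18.3%, and the PFKP share falls from 71.3% in siNC1 to 60.4% in siKLF5b.

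Related genes outside the members were followed in 5 lists of 107 genes, of which 99 were tested. Their counts in siKLF5b are to be read against 12.9% of all genes lower and 10.3% higher, and against 26.0% and 14.5% of the abundant genes. In siKLF5b against siNC1, the 45 wider hypoxia targets had 16 of 42 tested lower and 6 higher at adjusted p below 0.05, with a median log2FC of -0.15. Past both thresholds were GPRC5A, an orphan receptor of epithelia (log2FC -0.86), and MAFF, a small MAF factor (-0.82), both lower. Other glycolytic enzymes and transporters had 6 of 24 lower and 1 higher, among them HKDC1, a hexokinase domain protein (-1.22), and ARRDC4, an arrestin-like inhibitor of glucose uptake (-1.03). ARRDC4 had 11 CPM in siKLF5b and 22.7 CPM in siNC1, and HKDC1 had 1.07 and 2.43 CPM.

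Genes of pyruvate entry to mitochondria had 5 of 13 lower and 2 higher, PDK4, a kinase that blocks pyruvate dehydrogenase, being higher (log2FC 0.90, from 0.682 to 1.27 CPM). The pentose phosphate pathway had 2 of 8 lower and 0 higher. HIF subunits and regulators had 3 of 12 lower and 3 higher. The medians of these 3 lists were -0.15, -0.09 and 0.04. No test between lists was made.

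Among the other knockdowns, IGFBP3, a hypoxia target that binds insulin-like growth factors, was low in siSOX2b. It averaged 215 CPM there, against 475 in siTP63b and 554 in siGRHL2a, with log2FCs of 1.14 for siTP63b against siSOX2b and -1.37 for siSOX2b against siGRHL2a. STC1, a secreted glycoprotein at 0.991 to 2.24 CPM, was higher in siTP63b (log2FC 1.19 against siSOX2b and 1.0 against siGRHL2a). At adjusted p alone, the wider targets had 9 higher and 13 lower of 42 in siTP63b against siSOX2b, 7 and 11 against siGRHL2a, and 4 and 6 in siSOX2b against siGRHL2a. The shares over all genes were 16.4% higher and 15.4% lower, 13.6% and 13.4%, and 11.8% and 12.7%, in that order, and several of these counts lay near them.

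Outside the hypoxia targets, SLC16A7, the monocarboxylate transporter MCT2, was higher in siTP63b at 2.82 CPM, by log2FCs of 1.32 against siSOX2b and 0.84 against siGRHL2a. PFKFB1, a liver form of the phosphofructokinase activator enzyme, was also higher in siTP63b than in siSOX2b (log2FC 0.92), and PDK4 was higher than in siGRHL2a (0.89). In siSOX2b against siGRHL2a, SLC2A4, the insulin-responsive transporter GLUT4, was higher (log2FC 0.82). PGAM2, the muscle form of the mutase at 1.66 and 3.38 CPM, was lower there (log2FC -1.0), the same direction as PGAM1. These 5 genes had few reads, with group means of at most 3.38 CPM, and the siTP63b and siSOX2b libraries overlapped in PFKFB1.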

How the data were processed

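Gene counts in 15 libraries of HCC95 cells were taken as deposited. Per the labels, poly(A) RNA was reverse transcribed with random hexamers and sequenced from both ends. The authors made the counts with HISAT2 2.2.1 (hg38, uniquely aligned reads) and featureCounts 2.0.1 on Gencode 40, with no normalization. The length in the table equals the whole gene span for all 61544 genes, so intronic reads were counted. Whether strand or pairs were used is not given in the sources used here, and overlapping genes were given the same reads.

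One edgeR 4.0.16 quasi-likelihood model (R 4.3.3) was fitted to the 15 libraries with TMM factors, filterByExpr and group means. The p-values and shares of genes called depend on this pooling of the 2 sets. At adjusted p below 0.05, siKLF5b against siNC1 had 5827 genes, and 7840 when fitted within its set. siTP63b against siSOX2b, siTP63b against siGRHL2a and siSOX2b against siGRHL2a had 7972, 6791 and 6151. Within their set they had 6834, 5731 and 5086, and the F test had 9216 instead of 10762. Adjusted p-values are Benjamini-Hochberg over 25108 genes. The study's thresholds (adjusted p below 0.05, absolute log2FC above 0.75) were used, and its tool, DESeq2 1.42.0, was an alternative. CPM use TMM-scaled library sizes. The model was tested on simulated counts. Overlaps and exon lengths came from Gencode 44, which held 61445 of the 61544 identifiers. Shares of isoenzyme pairs were compared with exact permutation tests.

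The members and lists were chosen with earlier results of these data known. Values in every library were to be given for members past the thresholds, up to 12 a comparison, and for the 6 smallest adjusted p in siKLF5b against siNC1. The highest-count member of each role, up to 4 genes of each other list past the thresholds and the targeted genes were also to be named, and values for further members were added after they were seen. One gene outside the members that met this rule is not reported here. Alternatives changed the scaling, filter, libraries, genes, model, tool and fold threshold.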

Additional observations from a re-analysis of the deposited data

How the results depend on the processing

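Fold thresholds decided the counts of members called. With no fold threshold, 1 member was higher and 24 lower in siKLF5b against siNC1, 6 and 16 in siTP63b against siSOX2b, 5 and 11 in siTP63b against siGRHL2a, and 10 and 7 in siSOX2b against siGRHL2a. Above an absolute log2FC of 1, those lower numbered 0, 0, 2 and 1 in the same order, and 0 were higher in siTP63b against siSOX2b or siGRHL2a. A test against 0.75 itself (glmTreat) left 0 lower in siKLF5b, 0 higher and 0 lower in siTP63b against siSOX2b, 2 lower in siTP63b against siGRHL2a and 0 lower in siSOX2b against siGRHL2a. With protein-coding genes alone, 0 members were lower in siKLF5b past both thresholds. The members higher in siKLF5b at adjusted p alone numbered 2 with the 6 libraries compared alone, which are the whole of their set. They also numbered 2 with the counts of the other 9 libraries halved and with protein-coding genes alone. The cause was not tested. For siKLF5b against siNC1, the fits of the libraries compared and of their set are the same, but they enter the number of alternatives separately. The median log2FC of the members in siSOX2b against siGRHL2a turned from 0.0059 to -0.012 with upper-quartile factors, and the cause was not tested.

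With 1 library left out, 1 to 2 members were lower in siKLF5b (2 without siNC1 replicate 2, siNC1 replicate 3 or siKLF5b replicate 1). In siTP63b against siSOX2b 1 to 2 were higher (1 without siTP63b replicate 3, siSOX2b replicate 2 or siSOX2b replicate 3), and in siSOX2b against siGRHL2a 1 to 2 were lower (1 without siSOX2b replicate 2). Those higher in siTP63b against siGRHL2a at adjusted p alone numbered 3 to 7, with 3 without siGRHL2a replicate 2 and 7 without siTP63b replicate 2. Of the log2FCs of single members, 1346 kept their direction and side of the thresholds, 3 moved past them and 11 moved inside them. Most members never approached the fold threshold. Of the 80 member calls at adjusted p alone, 62 held in all 17 alternatives and 18 were lost in at least 1. Those that held least often were ALDOC in siSOX2b against siGRHL2a (6 of 17), GPI in siTP63b against siSOX2b (9) and EGLN1 in siKLF5b (10). Same-numbered libraries did not deviate together (correlations -0.083 to 0.050), and not every library correlated best with its own number. With the replicate number as a block, 23 members were lower in siKLF5b and 13 in siTP63b against siGRHL2a at adjusted p alone, and the counts past both thresholds did not change.

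The analyses at adjusted p alone, the median over the members and the scaling without the members were chosen after seeing the data. Permutation tests of 3 against 3 libraries do not go below 0.1, and reads of overlapping genes are not separated.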
